A study of Macaca nemestrina with 58 samples.

Results

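The comparison set the gene expression change of the vaginal mucosa after DMPA beside the change after LNG. For each animal, the mean of all its treated arrays minus the mean of its own Baseline arrays gave 1 change, and the changes of the 9 DMPA animals were compared with those of the 6 LNG animals. These 15 animals are all the animals of the series and use all 58 arrays: 17 baseline and 17 treated arrays of the DMPA animals, and 12 baseline and 12 treated arrays of the LNG animals. 1 baseline array is labelled a duplicate and was averaged with its partner.

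The samples are vaginal pinch biopsies of pig-tailed macaques (Macaca nemestrina), read on an Affymetrix array made for the rhesus macaque. DMPA (depot medroxyprogesterone acetate) is an injected progestin derived from progesterone. LNG is the labels' name for the arm that the series text calls the combined oral contraceptive (COC), a kind of pill that pairs an estrogen with a progestin. LNG is the usual short name of levonorgestrel, a progestin derived from nortestosterone. The DMPA animals had doses labelled 0.5, 1.5 and 2.5, with 3 animals each, and times labelled 1D4 (8 arrays) and 2D2 (9 arrays). The LNG animals were labelled High (3 animals) or Low (3 animals), with times labelled 5th (6 arrays) and 7th (6 arrays), and 5 of these 12 arrays carry the mark (A-), which no label explains. No unit stands beside the doses, and the series text places the treated biopsies 5 weeks after the first oral dose and 2 weeks after the second injection. Doses and times of the arms were therefore not matched. Baseline biopsies of the DMPA animals fell 7 times in the early and 2 times in the late follicular phase, and 2 times in the early and 6 times in the late luteal phase. Those of the LNG animals, after averaging the duplicate, fell 3, 3, 2 and 3 times in these phases. All 15 animals were treated, so the change of an arm holds the drug, the passing of time and the earlier biopsies together, and these cannot be told apart.

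The vaginal surface is a layered squamous epithelium: cells divide at its base, then make keratins, desmosomes and a cornified envelope as they move outward and are shed. Estrogen thickens it and loads it with glycogen, and progestins that suppress ovarian estrogen thin it. Medroxyprogesterone acetate also binds the glucocorticoid receptor. In the baseline samples the squamous markers were present: KRT13 and KRT4, keratins of such epithelia, had median log2 levels of 14.01 and 13.69, CRNN (cornulin) 13.27, IVL (involucrin) 12.54, the desmosomal cadherin DSG3 12.53 and the basal transcription factor TP63 12.04. KRT5 and KRT14 were not analysed here. In a bulk biopsy, fewer cells of a type and less RNA per cell cannot be told apart.

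No probe set differed between the DMPA change and the LNG change at an adjusted p under 0.05 (0 of 31624, 0%). The lowest adjusted p was 0.383 (limma, Benjamini-Hochberg). At an unadjusted p under 0.05 there were 2001 probe sets, where 1581 are expected by the level of the test alone. The 95% interval of the difference reached a median of 0.347 on either side of the estimate (log2), and for 87.7% of probe sets it lay within a 2-fold difference either way. For 490 probe sets the estimated difference itself was beyond 2-fold. The arms also did not differ at an adjusted p under 0.05 in their baseline levels (0%, with 2470 probe sets at an unadjusted p under 0.05) or in their treated levels (0%, with 5632), though without the DMPA animal PHQ1 344 probe sets passed for the treated levels. A p that misses the threshold does not show that the arms acted alike.

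Each arm by itself moved away from baseline. In the DMPA animals 1958 genes rose (17.5% of the 11199 genes tested) and 1806 fell (16.1%). In the LNG animals 520 genes rose (4.64%) and 543 fell (4.85%). In these counts and in those of the lists below, a gene rose or fell only if its change passed an adjusted p under 0.05. A gene not counted can still have a mean far from 0. The list counts stand against these shares over all genes. The arms differ in their number of animals, so the counts of calls do not measure the size of the effect, and the LNG count rested on single animals. Over all probe sets the LNG count was 2629, and it was 0 without BB967, without BB4800 or without BB537, 686 without BB173 and 1506 without BB4870. The DMPA count of 9683 probe sets was 6212 without BB981, the lowest on leaving out 1 animal. The genes called higher in both arms were 266 (2.38%) and those called lower in both were 430 (3.84%). All 696 had the same direction in both arms, which is 18.5% of the DMPA calls and 65.5% of the LNG calls.

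**Figure D1:**
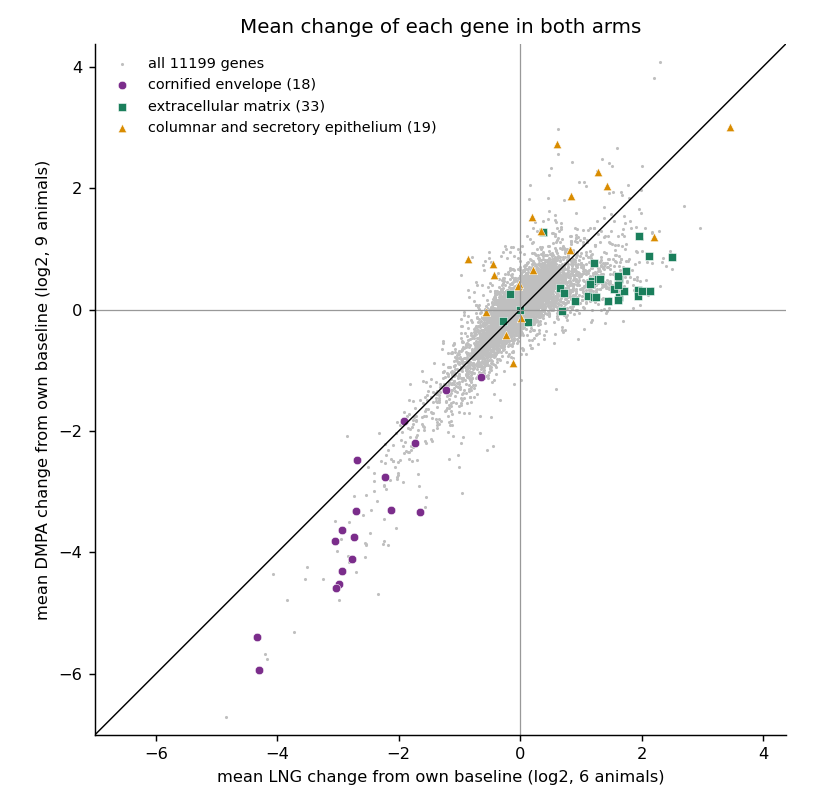
Mean change from own baseline in the LNG animals (horizontal axis, log2) and in the DMPA animals (vertical axis, log2), 1 point per gene, with 3 gene lists coloured and a line of equal change. The points lie along that line (Pearson r = 0.829 across 11199 genes, which are not independent), the 33 extracellular matrix genes lie mostly below it with median changes of 0.31 after DMPA and 1.31 after LNG, and most columnar and secretory genes lie above it.

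Large changes of one arm had the same sign in the other. Of 340 genes that fell at least 2-fold after DMPA, 339 had a lower mean after LNG, and of 135 that rose at least 2-fold, 134 had a higher mean. Of 133 genes that fell at least 2-fold after LNG, all 133 had a lower mean after DMPA, and of 253 that rose, 249 had a higher mean. These genes were chosen by the size of their own arm's change, so the other arm's mean is the part that the choice did not set. The genes that rose at least 2-fold after LNG had a median change of 1.42 after LNG and of 0.60 after DMPA. Those that fell at least 2-fold after DMPA had a median change of -1.60 after DMPA and of -1.33 after LNG.

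Of the 34 gene lists described, the cornified envelope list, which holds proteins that armour the outermost squamous cells, had the lowest median change in both arms. All 18 of its measured genes had a mean change below 0 in both arms. After DMPA all 18 passed as lower, and after LNG 4 of 18 did. The median change was -3.48 after DMPA and -2.72 after LNG, and the median difference between the arms was -0.89 (0.04 over all genes), with no gene of the list called different. CRNN changed after DMPA by -9.22 to 1.13, with a median of -7.95, and after LNG by -8.55 to -0.06, with a median of -4.40. The LNG values lay wholly within the DMPA range. IVL changed by -7.34 to 1.40 with a median of -5.42 after DMPA, and by -6.39 to 0.15 with a median of -2.95 after LNG. The difference of IVL was -1.55 with a 95% interval from -4.55 to 1.45 (adjusted p = 0.871), which holds differences in both directions. TGM3, a cross-linking enzyme of the envelope, had the smallest p of this list: its change was -6.00 to -0.98 after DMPA (9 of 9 animals lower) and -3.30 to 1.18 after LNG (5 of 6 lower), and its difference was -1.68 with an interval from -3.54 to 0.17 (adjusted p = 0.786).

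Proteases that release surface cells, with their inhibitors, had a similar pattern. All 18 had a mean change below 0 in both arms, and 15 passed as lower after DMPA and 2 after LNG. The medians were -2.49 and -2.0, with a median difference of -0.53. KLK7, a kallikrein that cleaves the links between cornified cells, changed by -4.78 to 0.79 after DMPA (8 of 9 lower) and by -2.43 to 0.71 after LNG (3 of 6 lower). Its difference was -1.77 ± 0.75 (SE, 9 and 6 animals; adjusted p = 0.779). 4 DMPA animals lay below all LNG animals and 1 lay above all of them. The serine protease TMPRSS11B fell 104-fold after DMPA, and its LNG mean was 28.8-fold below baseline without passing (adjusted p = 0.065). The 18 suprabasal squamous genes, which act in the layers below the surface, all had a mean change below 0 in both arms. Of them 14 passed as lower after DMPA and 7 after LNG, with medians of -1.53 and -1.37 and a median difference of -0.12. KRT10, a keratin of those layers, had a difference of -0.97 with an interval from -1.96 to 0.02, while another probe set of it had 0.13.

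Among the genes called lower in both arms, 6 had the largest falls by the smaller of their 2 changes. They were PNLIPRP3, of the pancreatic lipase family (21.7-fold after DMPA and 11.7-fold after LNG), the envelope enzyme TGM1 (14.1-fold and 8.24-fold), the keratin KRT78 (15.8-fold and 8.11-fold), the serine protease PRSS27 (8.39-fold and 6.66-fold), the annexin ANXA9 (8.32-fold and 5.81-fold) and IL1RN, which makes the antagonist of the interleukin 1 receptor (6.01-fold and 5.72-fold). The difference of IL1RN between the arms was -0.07 with an interval from -1.95 to 1.81, which is wide because the animals within each arm were far apart. The basal keratinocyte list had a different sign: its median change was 0.26 after DMPA, where 4 of 7 genes rose, and 0.11 after LNG, where 1 of 7 rose.

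The squamous change varied widely between the animals of each arm. The squamous score, the mean change of 54 cornified, protease and suprabasal genes, was -4.33 to 0.77 with a median of -3.36 in the DMPA animals, and -4.59 to -0.06 with a median of -2.03 in the LNG animals. Within the DMPA arm the 3 animals at the dose labelled 0.5 had -2.73, -0.72 and 0.77, while the 6 at 1.5 and 2.5 had -4.33 to -3.17. Within the LNG arm the 3 High animals had -2.04, -0.18 and -0.06, and the 3 Low animals had -4.59, -3.43 and -2.03. In each arm some animals lay above -1 and others below -3. Without the 3 DMPA animals at 0.5, the median difference of the cornified envelope list was -2.10. Against the LNG Low animals alone it was 0.80, and against the LNG High animals alone it was -2.5. Without the (A-) arrays it was -0.23, and 14 of 18 genes of the list then passed as lower after LNG. That setting, here and below, also loses the LNG High animal BB4870 (squamous score -0.18), whose 2 treated arrays both carry the mark.

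Of 2 RNA quality controls, GAPDH moved with the squamous score. The 3' minus 5' difference of GAPDH, which grows as RNA is degraded or copied less completely, changed by -0.03 to 1.02 in the DMPA animals and by 0.10 to 0.98 in the LNG animals, means of 0.53 ± 0.37 (SD, n = 9) and 0.43 ± 0.32 (SD, n = 6). The 4 animals with the smallest squamous change, 2 in each arm, had GAPDH changes of -0.03, 0.06, 0.10 and 0.16. The arms differed in this measure by 0.10 (exact permutation of the arm labels over animals, two-sided p = 0.608, adjusted over 3 measures p = 0.608), and in the same measure of actin by 0.04 (p = 0.596, adjusted p = 0.608). In the same 4 animals, in that order, the actin measure changed by 0.07, 0.10, 0.13 and -0.01. BB4800 and BB0499, with the lowest squamous scores, had actin changes of 0.07 and 0.06, and the highest, 0.38, was in BB0540. With the GAPDH change as a covariate, 17 of 18 cornified genes passed as lower after LNG and the median difference of that list was -0.28. The part of RNA quality in the squamous change was not tested.

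**Figure D2:**
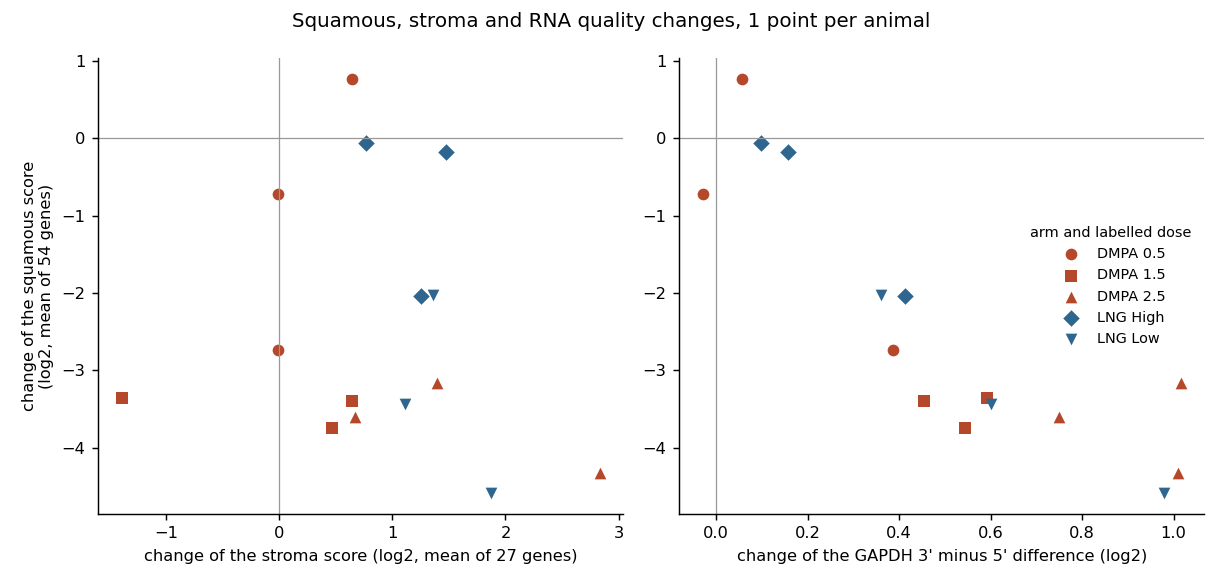
Change of the squamous score of each animal (vertical axis, log2, mean of 54 genes) against the change of the stroma score (left, log2, mean of 27 genes) and of the GAPDH 3' minus 5' difference (right, log2), with 1 point per animal, coloured by arm and shaped by labelled dose. The stroma score lies above 0 in all 6 LNG animals, between 0.76 and 1.88, and spreads from -1.39 to 2.83 in the 9 DMPA animals, while both arms cover a similar range of squamous change.

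Stromal genes had higher values after LNG than after DMPA. Of 33 extracellular matrix genes, 25 passed as higher after LNG and 4 after DMPA, and none passed as lower in either arm. The means of 3 genes after LNG and of 4 after DMPA were below 0. The median change was 1.31 after LNG and 0.31 after DMPA. The difference was below 0 for 29 of 33 (4542 of 11199 over all genes), with a median of -1.01 against 0.04 over all genes. An unadjusted p under 0.05 was found for 21 of 33 (6.39% of all genes), but none passed after adjustment. The 33 genes come from the same animals and are not independent, and the list was chosen with earlier results of these data known. These counts are therefore a description and no test. COL1A2, a chain of collagen I, changed by 0.42 to 2.75 with a median of 2.52 after LNG (6 of 6 animals higher), and by -0.71 to 2.31 with a median of 0.12 after DMPA (6 of 9 higher). 7 of 9 DMPA animals lay below every LNG animal. The difference of COL1A2 was -1.61 ± 0.45 (SE; interval from -2.57 to -0.66; adjusted p = 0.779), and another probe set of it had -1.33. DCN, the collagen-binding proteoglycan decorin, changed by 0.77 to 3.15 with a median of 1.38 after LNG and by -0.92 to 2.12 with a median of 0.03 after DMPA. 8 of 9 DMPA animals lay below every LNG animal, and its difference was -1.42 (interval from -2.32 to -0.51; adjusted p = 0.779), though the farthest of 4 other probe sets had 0.12. TNC, which makes tenascin C and was chosen after its values were seen, had the opposite sign, 1.28 after DMPA and 0.37 after LNG.

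Fibroblast, endothelial and smooth muscle genes had mostly the same sign of difference. 9 of 14 fibroblast genes rose after LNG, 2 rose and 1 fell after DMPA, with medians of 1.25 and 0.29. VIM, the intermediate filament of mesenchymal cells, changed by 0.53 to 1.51 after LNG and by -0.48 to 1.52 after DMPA, where 7 of 9 animals lay below all of LNG. Its difference was -0.81 (interval from -1.33 to -0.29). 10 of 16 endothelial genes rose after LNG and 1 after DMPA, with medians of 0.85 and 0.29, and all 16 differences were below 0. EMCN, a surface sialomucin of veins and capillaries, changed by 0.71 to 1.32 after LNG and by -0.76 to 1.81 after DMPA. 8 DMPA animals lay below all LNG animals, and the remaining one, BB0499, lay above them. VCAM1, an adhesion receptor for leukocytes, had a difference of -1.44 (interval from -2.63 to -0.24), and CXCL12, a stromal chemokine, one of -0.73 (interval from -1.27 to -0.20), while the farthest of 2 other probe sets of CXCL12 had -0.02. In smooth muscle 2 of 13 genes rose in each arm, with medians of 0.83 after DMPA and 1.46 after LNG. Beside the counts of these 3 lists, 17.5% of all genes rose after DMPA and 4.64% after LNG. Differences below 0 were 4542 of 11199 over all genes. SYNPO2, a protein of contractile filaments, changed by -2.38 to 3.61 after DMPA and by 0.80 to 3.22 after LNG. With 5th arrays only, no probe set of any kind passed after LNG (0 of 31624). The matrix, fibroblast and endothelial medians after LNG were then 1.27, 1.25 and 0.82.

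The stroma difference had a baseline side. Over the matrix list the DMPA animals were 0.51 above the LNG animals at baseline and 0.50 below them after treatment (medians over genes), and over the fibroblast list 0.72 above and 0.26 below. For COL1A2 these values were 0.97 and -0.64, and for DCN 0.70 and -0.72. The baseline phases of the arms differed as given above, and their part in the difference was not tested. The stroma score changed by 1.31 ± 0.37 (SD, n = 6) after LNG, upward in 6 of 6 animals, and by 0.58 ± 1.14 (SD, n = 9) after DMPA, upward in 6 of 9. This difference of -0.73 did not pass (exact permutation over animals, two-sided p = 0.174, adjusted over 3 measures p = 0.521). Without BB0499, the DMPA animal with the highest stroma score, it was -1.01 with an adjusted p of 0.025, and with 1D4 and 7th arrays only it took the opposite sign, at 0.044.

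The stroma values were not the same with each pair of treated times. With 2D2 and 5th arrays only, the median difference of the matrix list was -1.17 and that of the smooth muscle list -1.85. With 1D4 and 7th arrays only they were -0.38 and 0.58. After DMPA the mean change of the matrix list was 0.88 ± 0.77 (SD, n = 8) at 1D4 and 0.01 ± 1.09 (SD, n = 9) at 2D2. After LNG it was 1.22 ± 0.82 (SD, n = 6) at 5th and 1.31 ± 0.89 (SD, n = 6) at 7th. The DMPA mean was lower at 2D2 than at 1D4, while the LNG means were close, and the times were not tested against each other here. The (A-) mark is on 4 of the 7th arrays and on 1 of the 5th arrays, and the DMPA animal BB108 has no 1D4 array. Time cannot be told apart from these.

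**Figure D3:**
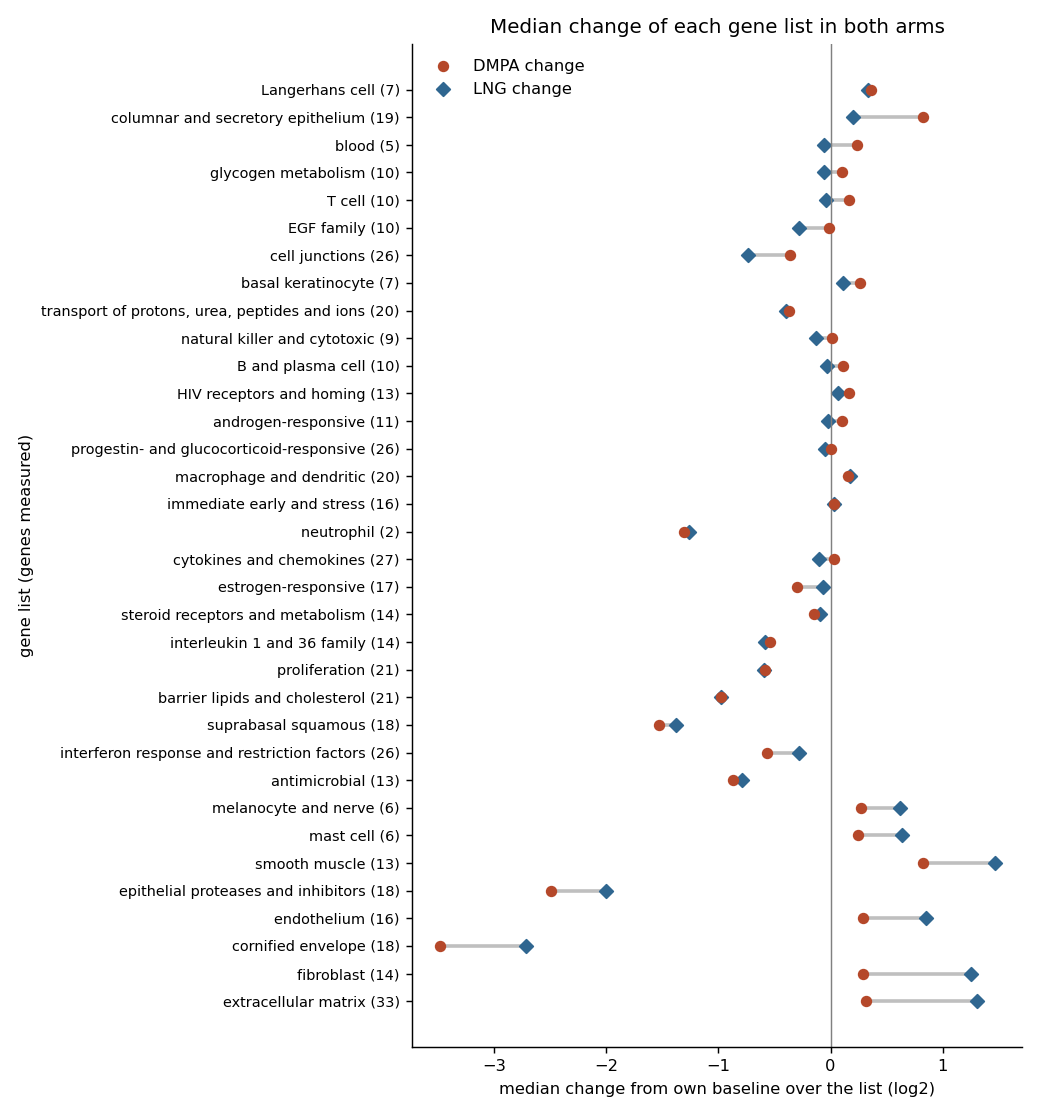
Median change from own baseline over the measured genes of each of 34 gene lists (log2), with circles for DMPA and diamonds for LNG and the number of genes measured in brackets, ordered by the median difference. The 4 lists of matrix, fibroblast, endothelial and smooth muscle genes have diamonds to the right of the circles, and the columnar and secretory list has the circle to the right, at 0.83 against 0.20.

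Genes of columnar and secretory epithelium, the type that lines the cervix and glands, had a higher median change after DMPA than after LNG. 10 of 19 rose and 2 fell after DMPA, 2 rose and none fell after LNG, and the median difference was 0.53. Among all genes 17.5% rose and 16.1% fell after DMPA, and 4.64% rose and 4.85% fell after LNG. The difference was above 0 for 14 of 19 genes (6657 of 11199 over all genes) and below 0 for 5. DMBT1, a scavenger receptor secreted onto mucosal surfaces, changed by 0.49 to 4.96 with a median of 2.57 after DMPA (9 of 9 animals higher) and by -1.32 to 2.11 with a median of 0.87 after LNG (4 of 6 higher). 6 DMPA animals lay above every LNG animal, and the difference was 2.12 (interval from 0.78 to 3.47; adjusted p = 0.779). KRT7, a keratin of simple epithelia, changed by -0.32 to 3.20 with a median of 0.72 after DMPA and by -2.52 to 0.80 with a median of -1.04 after LNG, and its difference was 1.68 (interval from 0.59 to 2.78). KRT19, another such keratin, had 1.32 (interval from 0.11 to 2.52), and LCN2, an iron-sequestering antimicrobial lipocalin, 1.75 (interval from 0.46 to 3.05), while another probe set of LCN2 had 0.14. PIGR, the receptor that carries antibodies into secretions, rose by 2.26 after DMPA and had a mean of 1.29 after LNG that did not pass. The mean change of the list was 0.41 to 2.05 in the DMPA animals, above 0 in 9 of 9, and -0.51 to 1.48 in the LNG animals, above 0 in 4 of 6. The 3 LNG High animals had -0.51, -0.44 and 1.48, and the 3 LNG Low animals 0.36 to 1.28. The 3 DMPA animals at 0.5 had 0.41 to 0.91. MSMB, a secreted prostate and mucosal protein, was one of the 6 genes with the largest rises by the smaller of both changes among genes called higher in both arms, at 8.06-fold after DMPA (9 of 9 animals higher) and 10.9-fold after LNG (4 of 6 higher, with a range of the log2 change from -0.70 to 8.35).

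Cell junction genes, which seal and anchor epithelial cells, had a median change of -0.36 after DMPA, where 4 of 26 rose and 9 fell, and of -0.74 after LNG, where none rose and 2 fell. Over all genes 17.5% rose and 16.1% fell after DMPA, and 4.64% rose and 4.85% fell after LNG. The difference was above 0 for 21 of 26 (6657 of 11199 over all genes), with a median of 0.19. CDH1, the E-cadherin of adherens junctions, changed by -1.02 to 0.39 after DMPA and by -2.49 to -0.15 after LNG, where 6 of 6 animals were lower. 6 DMPA animals lay above every LNG animal, yet the interval of the difference of 0.57 ran from -0.09 to 1.23. EPCAM, an adhesion molecule of simple epithelia, changed by 0.40 to 2.35 after DMPA (9 of 9 higher) and by -1.15 to 1.91 after LNG (3 of 6 higher), with a difference of 0.95 (interval from -0.01 to 1.90).

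The genes with the smallest p of the difference were not those with the largest changes. These genes, and the 2 named from each list, were picked by the p of this same difference. How far their arms lie apart follows from that choice and is no further support for a difference. TMPRSS2, a membrane protease of secretory epithelia and an androgen target in the prostate, changed by 0.19 to 2.12 with a median of 0.70 after DMPA (9 of 9 animals higher) and by -0.68 to 0.01 with a median of -0.30 after LNG (5 of 6 lower). The arms did not overlap in TMPRSS2. The difference was 1.20 ± 0.26 (SE; interval from 0.65 to 1.76; adjusted p = 0.779), or 2.30-fold, and 2 other probe sets of it were kept, the farther with 0.51. It lay between 1.02 and 1.48 in the alternatives tried. CLDN7, a claudin of tight junctions, changed by 0.26 to 0.90 after DMPA (9 of 9 higher) and by -0.67 to 0.55 after LNG (4 of 6 lower), with a difference of 0.72 (interval from 0.36 to 1.09). C7H15orf40, an uncharacterised open reading frame, had 0.62 (8 of 9 DMPA animals above all LNG animals), SLC9A2, a sodium and proton exchanger, 0.82, ELMOD2 0.65 and SYTL3 0.58.

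In the other direction GLRX, the redox enzyme glutaredoxin, changed by -0.92 to 0.55 with a median of -0.60 after DMPA (8 of 9 lower) and by 0.15 to 0.61 with a median of 0.42 after LNG (6 of 6 higher). 8 DMPA animals lay below all LNG animals, and the difference was -0.81 (interval from -1.22 to -0.40). C1QTNF7, a secreted protein related to complement C1q, changed by -1.54 to 2.15 after DMPA and by 0.87 to 2.52 after LNG, where 8 of 9 DMPA animals lay below every LNG animal, and had a difference of -1.62 (interval from -2.55 to -0.70). GNB4, a G protein subunit, had -0.52, RTN4RL1, a relative of the Nogo receptor, -0.55, and LOC712421 -0.35. All 12 genes had an adjusted p of 0.779. Counted over all genes, the arms did not overlap for 3 genes with DMPA above LNG (0.0268%), namely TMPRSS2, BTBD9 and LOC694800, and for 3 with DMPA below (0.0268%), namely LOC712421, TBX2 and PCBP3. BTBD9, LOC694800, TBX2 and PCBP3 were chosen after their values were seen and had differences of 0.36, 0.23, -0.30 and -0.37.

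**Figure D4:**
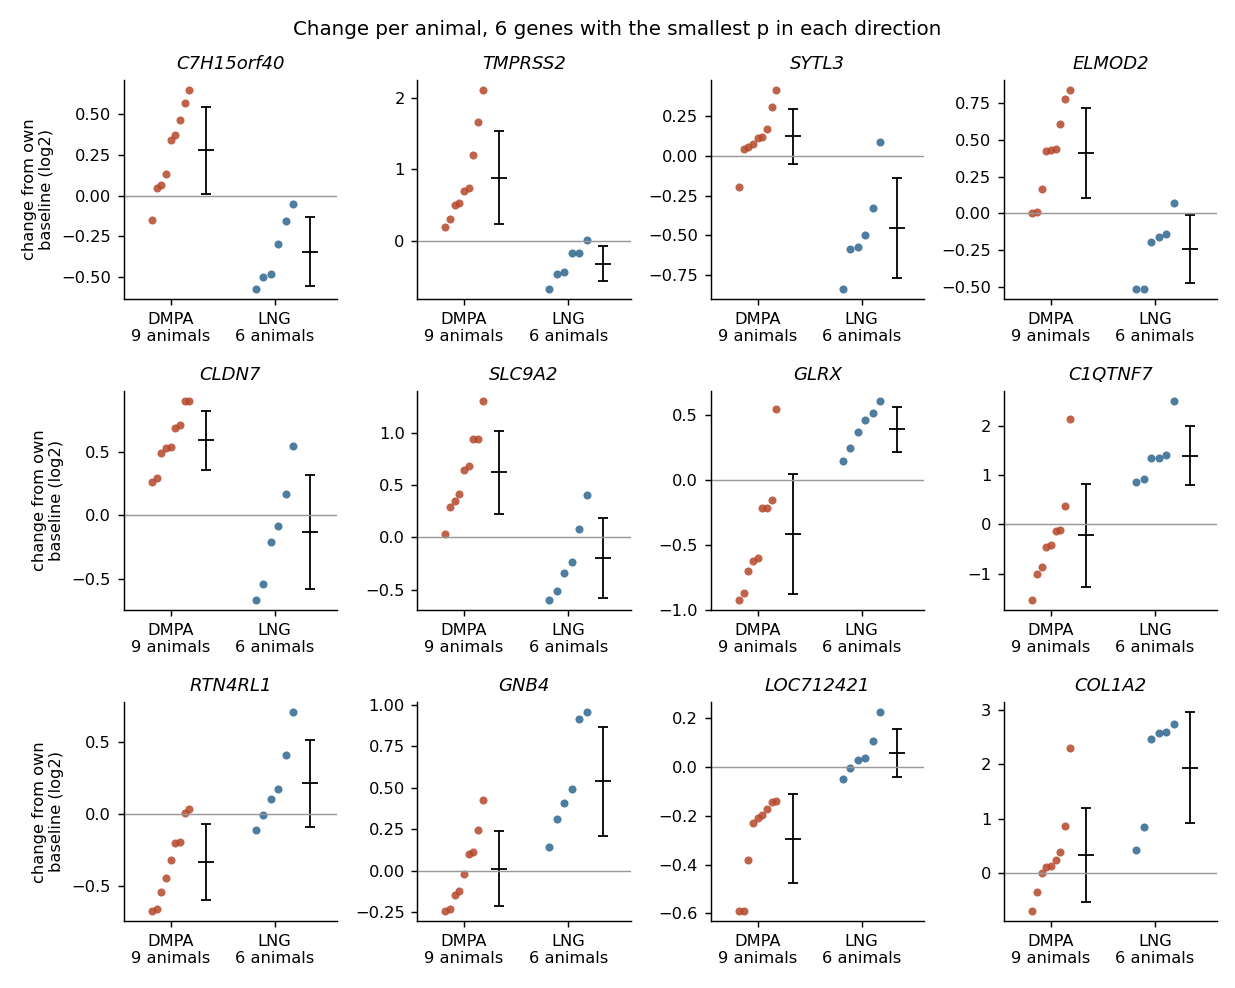
Change from own baseline (log2) of each animal for the 12 genes with the smallest p of the difference, with 1 point per animal, points spread sideways in order of value, and bars for the mean and SD of the 9 DMPA and 6 LNG animals. TMPRSS2 and LOC712421 show no overlap of the arms, and for GLRX, C1QTNF7 and COL1A2 a single DMPA animal lies well above the others, at 0.55, 2.15 and 2.31.

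None of 14 genes of steroid receptors and steroid metabolism rose in either arm, 3 fell after DMPA and 1 after LNG, and the median difference was -0.06. Among all genes 17.5% rose and 16.1% fell after DMPA, and 4.64% rose and 4.85% fell after LNG. PGR, the progesterone receptor, changed by -1.54 to 0.74 with a median of -0.45 after DMPA (7 of 9 lower) and by -0.59 to 0.91 with a median of 0.02 after LNG (3 of 6 lower). Its difference was -0.74 with an interval from -1.48 to -0.01 (adjusted p = 0.779), and neither arm's change passed. For ESR1, the estrogen receptor, the difference was 0.07 (interval from -0.41 to 0.56), and for NR3C1, the glucocorticoid receptor, -0.06 (interval from -0.44 to 0.32). For both receptors a difference of 2-fold is outside the interval.

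Calls among target genes of the receptors went in both directions, as they did over all genes. Of all genes 17.5% rose and 16.1% fell after DMPA, and 4.64% rose and 4.85% fell after LNG. Of 17 estrogen-responsive genes 12 had a difference below 0 (4542 of 11199 over all genes), with a median of -0.05. An unadjusted p under 0.05 was found for 5 of them (6.39% of all genes). IGFBP4, which binds insulin-like growth factors, changed by 0.21 to 1.69 after LNG (6 of 6 higher) and by -0.68 to 1.40 after DMPA (5 of 9 higher), with a difference of -1.03 (interval from -1.65 to -0.41). IGFBP4 and IGF1, the growth factor it binds (difference -1.32, chosen after its values were seen), are also made by stromal cells. In the list of progestin- and glucocorticoid-responsive genes, 4 of 26 rose and 6 fell after DMPA, and 2 rose and 3 fell after LNG, with median differences of 0.06 on the list and 0.04 over all genes. TSC22D3, the glucocorticoid-induced leucine zipper, rose by 0.79 after DMPA and had a mean of 0.77 after LNG that did not pass, and its difference was 0.03 (interval from -0.63 to 0.69). FKBP5, a chaperone of steroid receptors, had 0.30 (interval from -0.17 to 0.78). MT2A, a metallothionein, changed by 0.06 to 0.60 after LNG (6 of 6 higher) and by -0.65 to 0.25 after DMPA (5 of 9 higher), with a difference of -0.46 (interval from -0.74 to -0.18). Of 11 androgen-responsive genes, TMPRSS2 among them, 2 rose after DMPA and 1 after LNG. The difference was above 0 for 6 of 11, near the share over all genes (6657 of 11199), with a median of 0.07. KLK3 had 0.71 (interval from -0.48 to 1.90).

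**Figure D5:**
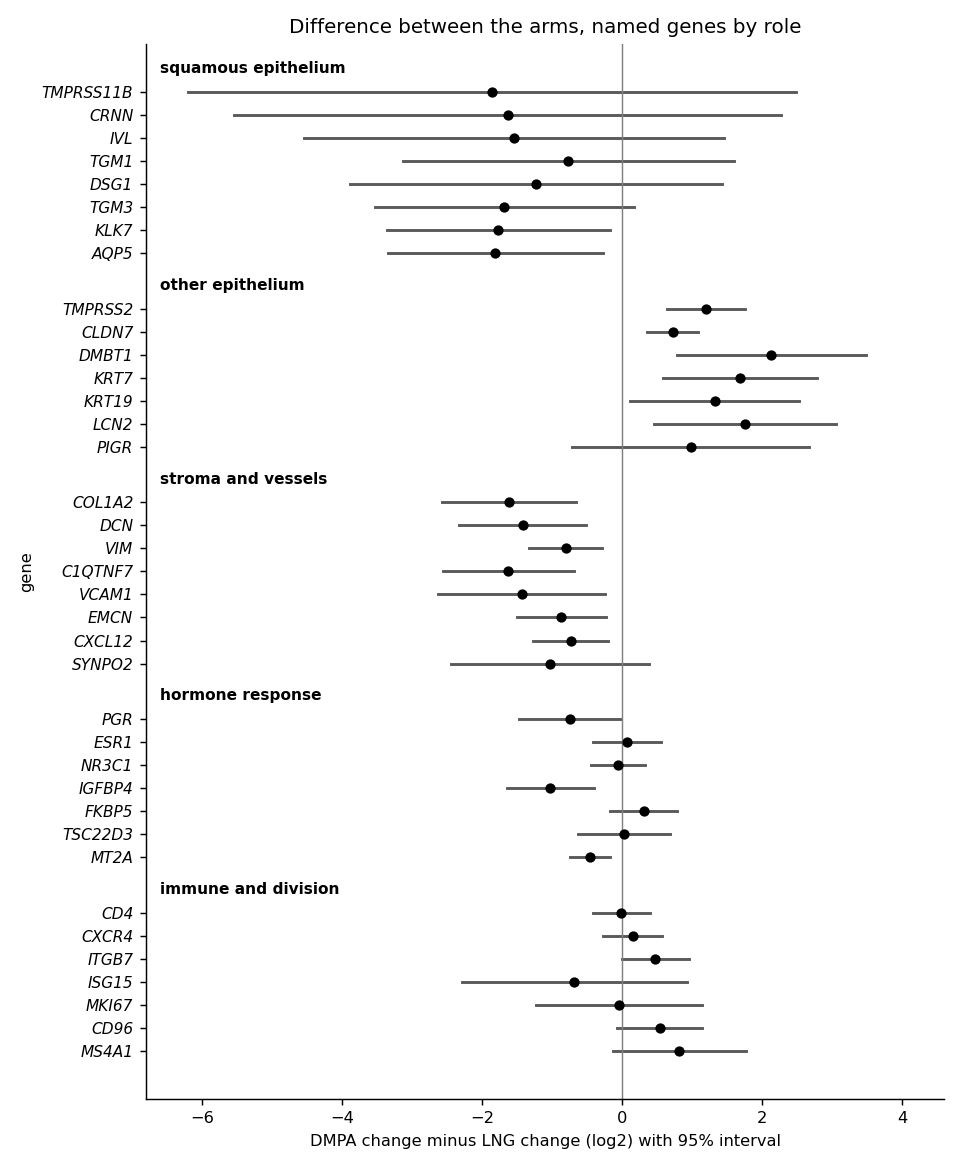
DMPA change minus LNG change (horizontal axis, log2) with its 95% interval for 37 named genes, grouped by role on the vertical axis. The interval of the squamous gene TMPRSS11B runs from -6.20 to 2.49, while those of CD4, ESR1 and NR3C1 lie within 0.56 of 0, and no gene passed after adjustment.

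Among immune genes no difference passed. In the list of HIV receptors and homing, with 13 genes measured, 4 rose and 3 fell after DMPA, and 2 rose and none fell after LNG. The shares over all genes were 17.5% and 16.1% after DMPA, and 4.64% and 4.85% after LNG. CD4, the HIV receptor, changed by -0.54 to 0.71 after DMPA and by -0.51 to 0.52 after LNG, and its difference was -0.01 (interval from -0.41 to 0.39), with the opposite sign once arrays were centred on their median. CXCR4, an HIV coreceptor, rose by 0.41 after DMPA (9 of 9 animals) and had a mean of 0.27 after LNG, with a difference of 0.15 (interval from -0.27 to 0.56). ITGB7, a chain of gut and mucosal homing integrins, rose by 0.50 after DMPA and had a mean of 0.03 after LNG, and its difference was 0.47 (interval from -0.01 to 0.95). Of 10 T cell genes 9 had a difference above 0 (6657 of 11199 over all genes), with a median of 0.23. This median did not keep its sign under all 9 settings tried for the lists. Of 9 natural killer and cytotoxic genes none passed in either arm. Of 10 B and plasma cell genes none passed in either arm, with a median difference of 0.08. MS4A1, which encodes CD20, changed by -1.13 to 2.29 after DMPA and by -1.31 to 0.14 after LNG. Of 20 macrophage and dendritic genes 5 rose and 1 fell after DMPA and none passed after LNG, while the median difference was 0.05. Of 6 mast cell genes 2 rose after DMPA and 3 after LNG. CPA3, a mast cell protease, rose 1.95-fold after DMPA and 3.75-fold after LNG, and all 6 differences of the list were below 0 (4542 of 11199 over all genes). Of 26 interferon response genes 23 had a difference below 0 (4542 of 11199 over all genes), with a median of -0.14. That median did not keep its sign under all 9 settings tried for the lists. The mean change of the list was 0.23 in the 3 LNG High and -0.70 in the 3 LNG Low animals. In the DMPA animals it was -0.76 at 2.5, -0.19 at 1.5 and -0.18 at 0.5. ISG15, an interferon-induced ubiquitin-like protein, fell 3.62-fold after DMPA, in 9 of 9 animals, and had a mean 2.25-fold below baseline after LNG that did not pass.

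The lists of antimicrobial and interleukin 1 and 36 genes made by squamous cells had median changes below 0 in both arms. Means were below 0 for 11 of 13 antimicrobial genes after DMPA and for 12 after LNG. For the interleukin list they were below 0 for 12 of 14 in each arm. The mean change of the antimicrobial list was above 0 in 2 of 9 DMPA and 1 of 6 LNG animals. Of 13 antimicrobial genes 9 fell and 1 rose after DMPA and 2 fell after LNG, with a median difference of -0.15. Of 14 genes of the interleukin 1 and 36 family 7 fell after DMPA and 3 after LNG, with a median difference of -0.08. IL1B, an inflammatory cytokine, changed by -0.78 to 1.38 after DMPA (7 of 9 higher) and by -1.83 to 0.44 after LNG (2 of 6 higher), and its difference was 0.73 (interval from -0.07 to 1.53). Of 27 cytokine and chemokine genes 2 rose and 5 fell after DMPA, and 3 rose and 1 fell after LNG. The shares over all genes were 17.5% and 16.1% after DMPA, and 4.64% and 4.85% after LNG. CXCL6, a chemokine for neutrophils, rose by 0.52 after DMPA (9 of 9 animals) and had a mean of 0.19 after LNG, with a difference of 0.33 (interval from 0.02 to 0.63).

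Genes of other cells that a biopsy can hold were counted too, and none of their differences passed. Of 7 Langerhans cell genes 2 rose after DMPA and none passed after LNG, with a median difference of 0.54 that was -0.11 without the (A-) arrays and -0.14 against the LNG Low animals alone. S100A12, a calcium-binding protein and 1 of only 2 neutrophil genes measured, fell 6.71-fold after DMPA and 4.64-fold after LNG, and is also made by squamous cells. CSF3R, the other of the 2, passed in neither arm. It changed by -0.53 to 1.29 after DMPA, with a mean above 0, and by -0.66 to 0.12 after LNG, with a mean below 0. Of 5 blood genes 1 rose and 1 fell after DMPA and none passed after LNG. Of 6 melanocyte and nerve genes 1 rose and 1 fell after DMPA, and 1 rose and 1 fell after LNG. The gene that rose was NGFR, a neurotrophin receptor, 1.77-fold after DMPA and 3.17-fold after LNG, with a difference of -0.84 (interval from -1.76 to 0.08).

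Of 21 proliferation genes 17 fell after DMPA and none passed after LNG, yet the median changes were equal, -0.59 in both arms. MKI67, a marker of dividing cells, changed by -2.58 to 0.79 after DMPA and by -2.75 to -0.13 after LNG, with a difference of -0.05 (interval from -1.23 to 1.14). Of 21 genes of barrier lipids and cholesterol synthesis 19 fell after DMPA and 8 after LNG, 7 of them in both, with medians of -0.98 in both arms. AQP5, a water channel of secretory and squamous epithelia, changed by -5.18 to 0.17 after DMPA (8 of 9 lower) and by -1.69 to 0.37 after LNG (4 of 6 lower). 6 DMPA animals lay below every LNG animal, and the difference was -1.82 (interval from -3.35 to -0.28; adjusted p = 0.779). Of 20 transport genes 4 rose and 7 fell after DMPA, and 1 rose and 3 fell after LNG. Over all genes the shares were 17.5% and 16.1% after DMPA, and 4.64% and 4.85% after LNG. Among 10 glycogen genes 3 rose after DMPA and 1 fell after LNG. The difference was above 0 for 8 of 10 (6657 of 11199 over all genes), with a median of 0.26. PHKB, a subunit of the kinase that starts glycogen breakdown, had 0.48 (interval from 0.12 to 0.83). Of 10 genes of the epidermal growth factor family and its receptors 1 rose and 3 fell after DMPA and none passed after LNG. EGFR and ERBB2, 2 of those receptors, had differences of 0.50 and 0.33 with intervals above 0, from 0.08 to 0.93 and from 0.05 to 0.62. MYBPC1, a myosin-binding protein gene, and VNN2, a vanin, had the largest means of the named genes after DMPA, 16.8-fold and 14.0-fold higher, with means 4.93-fold and 4.61-fold higher after LNG that did not pass, and differences of 1.77 (interval from -0.56 to 4.11) and 1.61 (interval from -0.56 to 3.77).

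Of 16 immediate early and stress genes 3 rose and 1 fell after DMPA and 1 rose after LNG. Over all genes 17.5% rose and 16.1% fell after DMPA, and 4.64% rose after LNG. DDIT4, a stress-induced inhibitor of growth signalling that glucocorticoids raise, rose by 0.58 after DMPA and had a mean of 0.07 after LNG, with a difference of 0.50 (interval from 0.02 to 0.99).

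Other genes rose in both arms. RASL11B, of the Ras family, rose 5.16-fold after DMPA and 4.01-fold after LNG, CAMK2N1, an inhibitor of a calmodulin-dependent kinase, 3.94-fold and 3.98-fold, KCNMB1, a potassium channel subunit of smooth muscle, 3.57-fold and 3.47-fold, and CMAH, of sialic acid metabolism, 4.15-fold and 3.42-fold. CTHRC1, a secreted protein of remodelled matrix, rose 3.26-fold after DMPA and 6.46-fold after LNG. For CAMK2N1 the difference was -0.01 with an interval from -1.10 to 1.07, and for KCNMB1 0.04 from -1.01 to 1.09, with opposite signs under another scaling for both, so the intervals reach just past 2-fold in either direction.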

How the data were processed

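Vaginal biopsies were read on 58 arrays. The authors deposited log2 values, 1 column per array, with array medians between 6.07 and 6.25. The submitters' processing notes name affy and Partek without versions. Background correction and normalization are not given in the sources used here, and values were used as the authors deposited them. The number of animals limits the precision.

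Of 52865 probe sets, 158 controls and probe sets whose mean lay below its 40th percentile (5.53) were removed, leaving 31624. A gene is its brightest kept probe set with 1 symbol (11199 genes); the platform annotation gives 27535 probe sets no symbol and 361 several. 1 change per animal, so paired within the animal, was fitted with limma 3.58.1 in R 4.3.3 (lmFit, eBayes, arm as the only term), adjusted by Benjamini-Hochberg over all kept probe sets and called at an adjusted p under 0.05. Intervals are 95%. Animals are the replicates. RNA quality and stroma measures were compared by exact permutation. The fit was tested on simulated data.

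Named were the 6 genes with the smallest p in each direction, the 2 of each list with the smallest p, the 6 largest smaller changes called in both arms in each direction, and 18 set genes. Members and 34 lists (489 of 758 genes measured) were chosen with earlier results of these data known. Lists are described by counts and medians, without a test. Alternatives covered filters, scaling, times, doses, covariates, the animal block and leaving out each animal, and list medians under other settings were added after seeing the data. No sequences were used.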

Additional observations from a re-analysis of the deposited data

Results flagged for a closer look

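Of 278 groups of animals checked for a single animal far from the others, 13 (4.68%) had one, where chance gives about 1 in 20. All values are log2 changes from own baseline.

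BB4800, an LNG Low animal, was the far animal in 5 of them, each time the lowest: for the mean of the cell junction list at -2.26 (the next animal had -0.83), for the transport list at -1.37 (next -0.38), for CDH1 at -2.49 (next -0.67), for F11R, a junction adhesion molecule, at -0.82 (next -0.12), and for MS4A1 at -1.31 (next -0.26). It also had the lowest squamous score of all 15 animals, -4.59. BB537, another LNG Low animal, was highest for C1QTNF7 at 2.52 (next 1.41) and lowest for the blood list at -0.94 (next -0.05). BB269, an LNG High animal, was highest for CYP26B1, which breaks down retinoic acid, at 1.19 (next 0.10).

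In the DMPA arm BB521 was highest for KRT7 at 3.20 (next 1.23), and BB981 for KRT19 at 4.45 (next 2.15). BB0499 was highest for EMCN at 1.81 (next 0.43) and had the highest stroma score. PPi2 was highest for DMKN, the epidermal protein dermokine, at 0.0703 (next -2.17) and was the only animal with a squamous score above 0. BB108 was lowest for CA9, a carbonic anhydrase, at -0.46 (next 0.13).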

How the results depend on the processing

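The count of 0 for the difference between the arms held in every alternative that was run, with a lowest adjusted p (limma) of 0.0528 without the DMPA 0.5 animals. The LNG count of 2629 probe sets was 1397 with no filter, 1308 with 1 probe set per gene, 0 with 2D2 and 5th arrays only, 1660 with 1D4 and 7th arrays only, 6815 with the GAPDH covariate, 1053 with the stroma covariate, 1057 with trend and robust eBayes, 0 with LNG High animals only and 0 with only animals that have 2 baseline samples. Fitted on arrays, it was 3968 with the animal as a block, 5273 with the 4 phases added, and 1 with no replicate block. It ranged from 0 to 3640 on leaving out each animal. The DMPA count was 4016 with 1 probe set per gene, where fewer are tested, and 6212 to 11209 on leaving out each animal. Treated levels gave 1 call with 1 probe set per gene, 1 with 2D2 and 5th arrays only, 2 without the DMPA 0.5 animals, and 0 to 344 on leaving out each animal, 344 being without PHQ1. The cause was not tested.

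Some differences of changes took the opposite sign, none of them called. Leaving out the (A-) arrays also left out the LNG animal BB4870, and keeping 1D4 and 7th arrays only left out the DMPA animal BB108. With arrays centred on their median, the values were CAMK2N1 0.0095 and CD4 0.012. With quantile normalization, the value was KCNMB1 -0.018. With 2D2 and 5th arrays only, the values were CAMK2N1 0.18, KCNMB1 -0.70, ESR1 -0.082 and CD4 0.34. With 1D4 and 7th arrays only, the values were SYNPO2 0.20, CALD1 0.045, TCF7 -0.093, MSMB 0.048, IL1RN 0.052, TSC22D3 -0.073, CXCR4 -0.15, the GAPDH measure -0.16, the actin measure -0.077 and the stroma score 0.044. With the animal block, the values were CAMK2N1 0.014, MKI67 0.0073 and CD4 0.027. With the block and phases, the values were CAMK2N1 0.17, MKI67 0.0032 and CD4 0.11. With no replicate block, the value was CAMK2N1 0.027. With the GAPDH covariate, the values were RASL11B -0.0047, KCNMB1 -0.15, PRSS27 0.13, IL1RN 0.38, TSC22D3 -0.11 and MKI67 0.21. With the actin covariate, the values were IL1RN 0.018, TSC22D3 -0.010 and MKI67 0.019. With the stroma covariate, the values were SYNPO2 0.0085, GZMH -0.0039, CAMK2N1 0.24, CTHRC1 0.015, ESR1 -0.096, NR3C1 0.014 and CD4 0.16. Without the (A-) arrays, the values were S100A12 0.11, RASL11B -0.32, KCNMB1 -0.76, CMAH -0.089, TGM1 0.19, KRT78 0.097, PRSS27 0.56, ANXA9 0.21, IL1RN 0.74, TSC22D3 -0.14, MKI67 0.095, CD4 0.066 and the GAPDH measure -0.021. Without the DMPA 0.5 animals, the values were CAMK2N1 0.51, NR3C1 0.063 and CD4 0.0047. With LNG High animals only, the values were SPTLC3 -0.045, MSMB 0.90, CAMK2N1 0.24 and NR3C1 0.18. With LNG Low animals only, the values were DMKN 0.44, CCNB1 0.14, S100A12 0.96, RASL11B -0.65, KCNMB1 -0.49, CMAH -0.28, PNLIPRP3 1.08, TGM1 0.79, KRT78 0.56, PRSS27 0.70, ANXA9 0.83, IL1RN 1.20, TSC22D3 -0.36, MKI67 0.56, IVL 0.60, CRNN 0.56, DSG1 0.91, TMPRSS11B 0.92, ISG15 0.66, CD4 0.0032 and CXCR4 -0.059. With only animals that have 2 baseline samples, the values were CAMK2N1 0.028, IL1RN 0.021, NR3C1 0.0045, MKI67 0.25 and CD4 0.11. Without the duplicate array, the values were CAMK2N1 0.087, KCNMB1 -0.059, MKI67 0.049 and CD4 0.017. On leaving out each animal, the ranges were -1.27 to 0.54 for MSMB, -0.066 to 0.76 for RASL11B, -0.28 to 0.28 for CAMK2N1, -0.19 to 0.37 for KCNMB1, -0.84 to 0.059 for PRSS27, -0.63 to 0.36 for IL1RN, -0.023 to 0.16 for ESR1, -0.18 to 0.026 for NR3C1, -0.19 to 0.17 for TSC22D3, -0.36 to 0.17 for MKI67, -0.14 to 0.069 for CD4, -0.0035 to 0.25 for CXCR4 and -1.01 to -0.48 for the stroma score. The stroma score passed without BB0499 (adjusted p = 0.025 by exact permutation) and under no other omission. The animal block gave no call of the difference. The differences of the other genes named by the rule kept their sign in the alternatives run for them; TNC, IGF1, BTBD9, LOC694800, TBX2 and PCBP3 were not rerun.

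The median differences of the 34 lists were recomputed under 9 settings chosen after seeing the data. The opposite sign was taken by 1 list with 2D2 and 5th arrays only, 10 with 1D4 and 7th arrays only (smooth muscle 0.58), 9 without the (A-) arrays, 6 without the DMPA 0.5 animals, 5 with LNG High animals only, 12 with LNG Low animals only (cornified envelope 0.80), 7 with the GAPDH covariate and 0 with either scaling. Under all 9, 11 lists kept their sign, the extracellular matrix, fibroblast, endothelium and columnar lists among them.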
